A study of Mus musculus with 4 samples.

Results

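The GIMAP family (GTPases of immunity-associated proteins) was followed through T cell development in the thymus and compared between control and Tox4-deficient mice. The members were taken by gene symbol, Gimap1, Gimap3, Gimap4, Gimap5, Gimap6, Gimap7, Gimap8 and Gimap9, which are 8 of the 32285 genes in the deposited matrices, and all 8 had UMIs in every stage of αβ thymocytes. GIMAP proteins are GTP-binding proteins built around an AIG1-type GTPase domain. They are made mainly in lymphocytes, where several of them sit on internal membranes and are known for keeping naive T cells alive after these leave the thymus. Gimap5, a protein of the lysosomal membrane, is the best studied of them, because rodents that lack it lose their peripheral T cells.

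Whole thymocyte suspensions of mice aged 6 to 8 weeks were read cell by cell in droplets with a 3′ RNA sequencing kit, which tags each captured transcript with a unique molecular identifier (UMI). The control group (Tox4;F/F, 2 libraries) carried floxed Tox4 alleles without Cre, and the cKO group (Tox4;F/F;Lck+, 2 libraries) carried the same floxed alleles with the Lck-Cre transgene, which is driven by the proximal Lck promoter and deletes in T lineage cells from within the CD4-CD8- double-negative (DN) stage on. All mice were gender-matched littermates on a C57BL/6 background, and the study describes pairs of control and cKO mice. The comparison asks at which stages loss of Tox4, an HMG-box protein of the nucleus, changes gene expression. Levels are given as CPM, the UMIs of a gene scaled to 1000000 UMIs of all cells of a class in a library, and are followed for each gene across stages and not ranked between genes.

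The libraries held 42716798 to 62007453 UMIs in 57354 cells, of which 33414 passed the filters, with medians of 2492 to 3445 UMIs per kept cell. Between 20.6% and 48.3% of cells exceeded the limit of 10% mitochondrial UMIs, and the higher shares, 48.3% and 46.1%, were those of replicate 1 of each group. Of 57005 barcodes, 348 occurred in at least 2 libraries. Clusters were named from marker genes with the GIMAP genes left out of the clustering, which gave 641 DN cells, 5176 DP blasts (DPbla, cycling CD4+CD8+ cells), 16492 DP cells undergoing rearrangement of the T cell receptor genes (DPre), 4881 DP cells under selection (DPsel), 1925 CD4SP and 1222 CD8SP cells, all of them DN-like, DPbla-like and so on, names rebuilt from markers that may differ from the study's. Another 1450 cells, in 6 clusters, stayed unnamed. The class names followed their markers: Il2ra averaged 445 CPM in DN and at most 20.4 CPM in the other 5 stages (the leading genes of DN cells also held Tcrg-C1 and Tcrg-C2), Mki67 928 CPM in DPbla, Rag1 2166 CPM in DPre, Cd69 253 CPM in DPsel, Zbtb7b 67.3 CPM in CD4SP and Nkg7 397 CPM in CD8SP cells. The 3′ tags of Tox4 lie outside the floxed exons, so its levels, 71.3 and 74.2 CPM in control and 56.8 and 60.7 CPM in cKO libraries over all DP cells, did not check the deletion.

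The 8 genes lie close together on chromosome 6 of GRCm38 (GENCODE M21), within 123.6 kb from 48647234 to 48770851. In order they are Gimap8 (chr6:48647234-48660875), Gimap9 (chr6:48676129-48679114), Gimap4 (chr6:48684549-48692060), Gimap6 (chr6:48701582-48708225), Gimap7 (chr6:48718621-48724636), Gimap1 (chr6:48739054-48743795), Gimap5 (chr6:48746197-48754210) and Gimap3 (chr6:48764464-48770851), with Gimap6 and Gimap3 on the reverse strand and the other 6 on the forward strand. All are protein-coding genes of 2 to 6 exons. Because the family arose by duplication, the 3′ ends that the assay reads were compared: of the 451 stretches of 50 bases in the last 500 bases of each member's transcript, none occurred in another member, while 36 of Gimap1 and 16 of Gimap3 occurred in genes outside the family. Gimap1os overlaps Gimap1 on the opposite strand, and the annotated read-through gene Gm28053, which is not among the counted features, overlaps Gimap7, Gimap1 and Gimap5, so reads from it could not be told from theirs.

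The promoters of 4 members are shown because these genes mark both ends of the pattern across stages: between DPre and CD4SP (CD4 single-positive) cells Gimap3 and Gimap4 changed by the largest folds, and Gimap1 and Gimap9 by the smallest. Each line gives the 250 bases before the RefSeq start site (GRCm38.p6), 5′ to 3′ along the gene. Capitals mark matches, on either strand, to 6 short motifs of factor families known in T cells, namely CACCC (KLF), AGGAAG (ETS), TGTGGT (RUNX), CTTTGA (TCF/LEF), TGTTTAC (FOXO) and CAGCTG (E-box), and no match overlapped another.
Gimap3 promoter (chr6:48770852-48771101, reverse strand): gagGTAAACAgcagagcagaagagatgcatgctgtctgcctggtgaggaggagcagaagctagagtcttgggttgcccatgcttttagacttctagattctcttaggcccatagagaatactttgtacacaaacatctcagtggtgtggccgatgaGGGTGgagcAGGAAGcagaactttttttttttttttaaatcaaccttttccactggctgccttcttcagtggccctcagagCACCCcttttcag
Gimap4 promoter (chr6:48684328-48684577, forward strand): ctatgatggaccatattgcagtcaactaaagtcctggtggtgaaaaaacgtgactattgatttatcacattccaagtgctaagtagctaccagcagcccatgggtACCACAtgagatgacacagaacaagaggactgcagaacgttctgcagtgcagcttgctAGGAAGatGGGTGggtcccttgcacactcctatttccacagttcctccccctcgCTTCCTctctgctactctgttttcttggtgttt
Gimap1 promoter (chr6:48738797-48739046, forward strand): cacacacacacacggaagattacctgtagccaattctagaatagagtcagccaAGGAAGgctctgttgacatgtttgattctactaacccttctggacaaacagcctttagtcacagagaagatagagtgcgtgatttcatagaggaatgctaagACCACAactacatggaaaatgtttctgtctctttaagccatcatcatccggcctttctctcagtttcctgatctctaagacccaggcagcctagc
Gimap9 promoter (chr6:48675885-48676134, forward strand): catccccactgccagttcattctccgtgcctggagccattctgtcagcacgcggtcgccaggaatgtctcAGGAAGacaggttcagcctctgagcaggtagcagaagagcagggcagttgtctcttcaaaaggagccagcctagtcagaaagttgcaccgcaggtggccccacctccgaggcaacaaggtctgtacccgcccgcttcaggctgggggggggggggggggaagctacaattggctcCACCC

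The ETS letters AGGAAG were present in 7 of the 8 members, all but Gimap6, against 29.5% of all 32851 promoter windows of the same length. KLF letters occurred in 5 members (Gimap3, Gimap4, Gimap5, Gimap8 and Gimap9), against 52% of all windows, so the Gimap1 promoter had none and the Gimap9 promoter had 1 directly before its start. RUNX letters occurred in Gimap1, Gimap4 and Gimap7 (14% of all windows), FOXO letters in Gimap3 alone (3.17%), and TCF/LEF (13.8%) and the E-box letters CAGCTG (13%) in none. Only the exact letters given were searched, so other forms of these sites, including other E-boxes and other ETS sites, were not counted. The motifs were picked after the levels were known, and a match is a description of letters, not of binding. No motif was present in both of Gimap3 and Gimap4 and absent from both of Gimap1 and Gimap9.

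GIMAP transcripts were low in DN and DPbla cells and became abundant as thymocytes matured. The summed family held 378 ± 23.0 CPM in DN cells (mean ± SD, n = 4 libraries), 317 ± 60.2 CPM in DPbla cells, 834 ± 62.5 and 1254 ± 133 CPM at the DPre and DPsel stages, and 1824 ± 175 and 1159 ± 129 CPM in CD4SP and CD8SP cells. Within each library the sum was 2.23 to 2.90 times as high in DPre as in DPbla cells, 1.35 to 1.60 times in DPsel as in DPre, and 1.39 to 1.53 times in CD4SP as in DPsel cells. CD8SP cells held 0.608 to 0.665 times the CD4SP level. Stages are clusters of the same cells, so these differences are described by whether the 4 library values of neighbouring stages overlap and by the share of all genes that did the same, without a test.

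**Figure D1:**
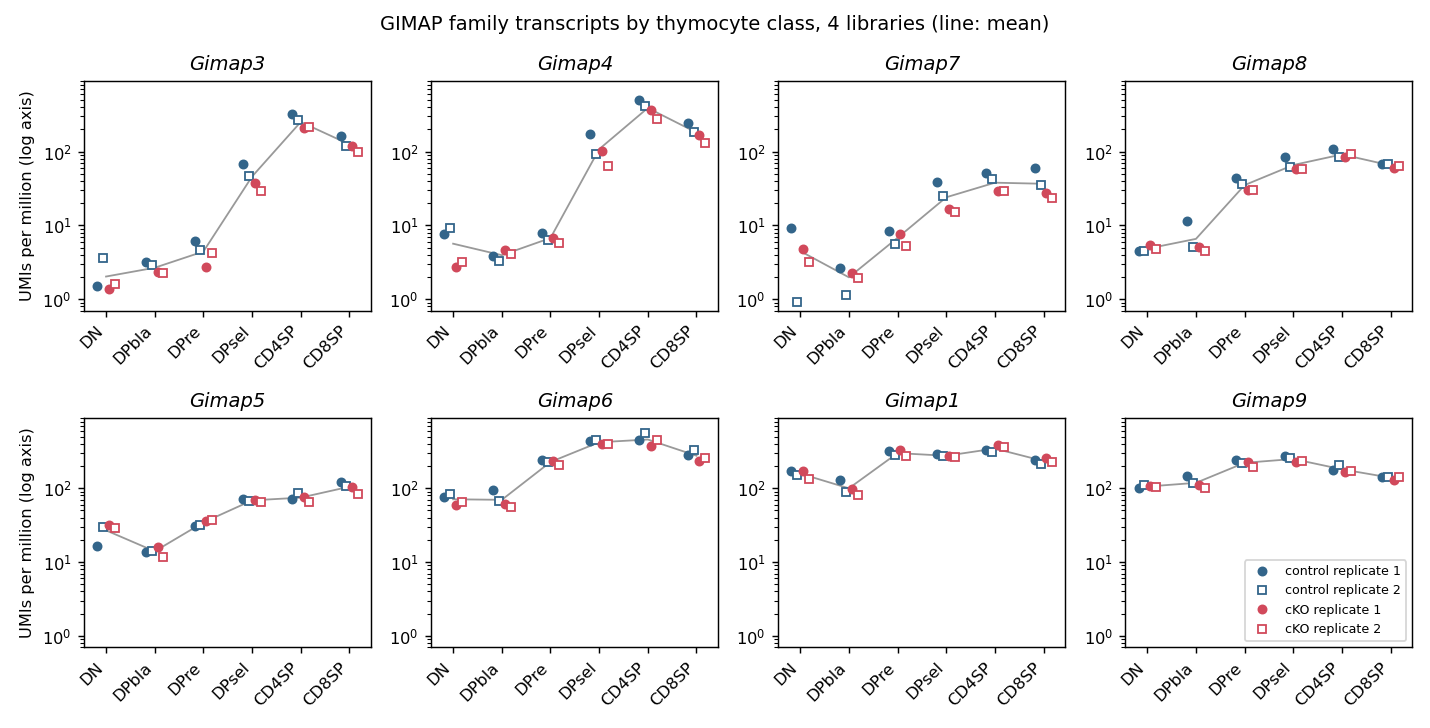
Level of each GIMAP gene (CPM, log axis) in 6 thymocyte stages, with 1 point per library and a line through the mean of the 4 libraries. Gimap3 and Gimap4 sit below 10 CPM up to DPre and between 208 and 498 CPM in CD4SP cells, whereas Gimap1 and Gimap9 stay between 81.4 and 383 CPM throughout.

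Gimap3 and Gimap4 changed over the widest range. Gimap3, a membrane-anchored close relative of Gimap5, measured 6.07 and 4.64 CPM in control and 2.69 and 4.28 CPM in cKO libraries in DPre cells. In CD4SP cells it measured 319 and 265 CPM in control and 208 and 213 CPM in cKO libraries. These values lay 49.7 to 77.2 times above the DPre level of the same library, with no overlap. Gimap4, a protein of the endoplasmic reticulum and Golgi that affects how fast dying T cells complete apoptosis, measured 7.95 and 6.38 CPM in control and 6.79 and 5.85 CPM in cKO libraries in DPre and 498 and 410.3 CPM in control and 367 and 279 CPM in cKO libraries in CD4SP cells. Its folds were 47.7 to 64.3. Neither gene's DPre level could be told from background, by the per-cell shares in erythroid cells given with the thinned counts, so the folds of both over DPre are lower bounds. The DPsel values lay in between, 68.6 and 47.3 CPM in control and 38.0 and 29.4 CPM in cKO libraries for Gimap3 and 171 and 93.7 CPM in control and 102 and 63.9 CPM in cKO libraries for Gimap4, again with no overlap on either side. The pair took 0.536% and 0.803% of the family's UMIs in DPre but 13.7% and 21.2% in CD4SP cells. CD8SP cells held less than CD4SP cells of both, 98.9 to 163 CPM for Gimap3 and 129.8 to 246 CPM for Gimap4.

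Gimap7 and Gimap8 were also low in DN (at most 9.08 CPM in a library) and DPbla cells. Gimap7, a GTPase whose activity depends on pairing with another GIMAP molecule, averaged 1.98 ± 0.623 CPM in DPbla and 6.78 ± 1.60 CPM in DPre cells. It reached 24.01 ± 10.8 CPM at the DPsel stage, and the CD4SP and CD8SP means were 37.8 ± 10.8 and 36.6 ± 16.2 CPM. Its DPsel, CD4SP and CD8SP values overlapped across libraries, while within each library CD4SP cells held 1.32 to 1.91 times the DPsel level and CD8SP cells 0.813 to 1.17 times the CD4SP level. Gimap8, the member with several GTPase domains in a row, averaged 6.57 ± 3.29 CPM in DPbla and 35.1 ± 6.53 CPM in DPre cells, then 65.7 ± 12.1 CPM at the DPsel stage and 91.3 ± 10.9 CPM in CD4SP cells. Its level was 3.82 to 7.03 times as high in DPre as in DPbla cells, and its DPsel and CD4SP values overlapped narrowly, 58.4 to 83.7 against 83.3 to 107 CPM, with CD4SP cells at 1.28 to 1.55 times the DPsel level of the same library.

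Gimap5 and Gimap6 followed a flatter course. Gimap5 averaged 26.9 ± 6.87 CPM in DN and 14.0 ± 1.80 CPM in DPbla cells, 34.4 ± 3.16 and 68.4 ± 2.72 CPM at the DPre and DPsel stages, and 74.6 ± 9.26 and 105 ± 15.6 CPM in CD4SP and CD8SP cells. Its mean was highest in CD8SP cells, unlike that of the other 7 members, and was 1.23 to 1.70 times the CD4SP level within a library, although the ranges of the SP (single-positive) classes overlapped across libraries (64.3 to 86.7 and 84.6 to 123 CPM). Gimap6, which binds GABARAP proteins of the autophagy machinery, averaged 69.6 ± 17.4 CPM in DPbla cells, 227 ± 13.6 and 419 ± 31.2 CPM at the DPre and DPsel stages, and 456 ± 74.5 and 275 ± 39.6 CPM in CD4SP and CD8SP cells. Its DPsel and CD4SP values overlapped.

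Gimap1 and Gimap9 were already plentiful before selection. Gimap1, which mature T and B cells need to survive, averaged 158 ± 18.9 CPM in DN and 99.6 ± 20.3 in DPbla cells, then 299 ± 27.9 and 275 ± 12.5 CPM at the DPre and DPsel stages and 344 ± 36.2 CPM in CD4SP cells. It supplied 41.1% of the family's UMIs in DN and 18.9% in CD4SP cells. Gimap9 averaged 118 ± 18.9 CPM in DPbla cells, 221 ± 19.7 and 249 ± 19.8 CPM at the DPre and DPsel stages, and was lower again in CD4SP (180.2 ± 19.1) and CD8SP cells (139 ± 7.72). It was the only member whose 4 libraries were all lower in CD4SP than in DPsel cells.

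Counted over the family, the step from DPbla to DPre had 7 of 8 members higher in all 4 libraries (all but Gimap3), as were 36.9% of the genes compared. Of the 7, Gimap4 and Gimap7 had DPre levels that cannot be told from background, which leaves 5 members (Gimap1, Gimap5, Gimap6, Gimap8 and Gimap9). This step of Gimap4 was small, with 3.31 to 4.59 CPM in DPbla and 5.85 to 7.95 CPM in DPre cells, and its mean turned to the opposite direction with no doublets removed (log2 -1.03) and after thinning of the cells (-0.12). From DPre to DPsel 6 of 8 were higher (all but Gimap1 and Gimap9), against 16.2% of genes. From DPsel to CD4SP 3 were higher (Gimap1, Gimap3 and Gimap4; 7.78% of genes) and 1 was lower (Gimap9; 27.8%). Across the whole interval from DPre to CD4SP 6 members were higher, against 13.3% of genes, and Gimap1 and Gimap9 overlapped. CD8SP cells were above DPre cells in 5 members (Gimap3, Gimap4, Gimap5, Gimap7 and Gimap8; 15.2% of genes) and below them in Gimap1 and Gimap9 (38.5% of genes). Between the SP classes 6 members were lower in CD8SP cells, all but Gimap5 and Gimap7, against 9.01% of genes. The earliest step, DN to DPbla, had 2 members lower in all libraries (Gimap1 and Gimap5), a share of the family close to the 23.3% of all genes.

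The DPbla class was uneven. Its clusters led by Mki67 and Top2a (1381 cells) and by Pclaf and Hells (1252 cells) held 221.6 ± 25.9 and 256 ± 45.9 CPM of the summed family, whereas the cluster led by Cenpf and Cdc20 (891 cells) held 627 ± 78.9 CPM. In this last cluster Gimap1, Gimap6 and Gimap9 averaged 212, 152 and 213 CPM, but Gimap3 and Gimap4 only 3.92 and 3.79 CPM. The remaining DPbla cluster (1652 cells) had a median of 835 UMIs per cell and 425 ± 55.6 CPM. The 4 DPre clusters lay close together, between 821 and 857 CPM.

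Within DPsel the members separated by cluster. The DPsel cluster led by Cd5 and Egr1 (2390 cells), genes that respond to signals of the T cell receptor, held 7.47 ± 2.26 CPM of Gimap3 and 13.7 ± 6.77 CPM of Gimap4. In the cluster led by Itm2a and Izumo1r (1755 cells) these were 31.3 ± 13.5 and 156 ± 75.5 CPM, and in the cluster led by Xcl1 and Tnfrsf9 (736 cells) 133 ± 41.4 and 176 ± 49.7 CPM. Gimap4 was thus already high in a cluster where Gimap3 was still low. Gimap6 did not follow them, with 453 ± 43.0, 444 ± 57.0 and 329 ± 30.5 CPM in the same clusters, and Gimap9 averaged 292, 262 and 156 CPM. Gimap1 was lowest in the Itm2a cluster (213 ± 8.41 CPM, against 332 ± 19.5 and 289.5 ± 31.9). Among CD8SP cells, the smaller cluster, led by Igfbp4 and Tesc with Top2a and Pclaf also among its leading genes (141 cells), held 799 ± 124 CPM of the family and the main cluster led by Nkg7 (1081 cells) 1236 ± 129 CPM.

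**Figure D2:**
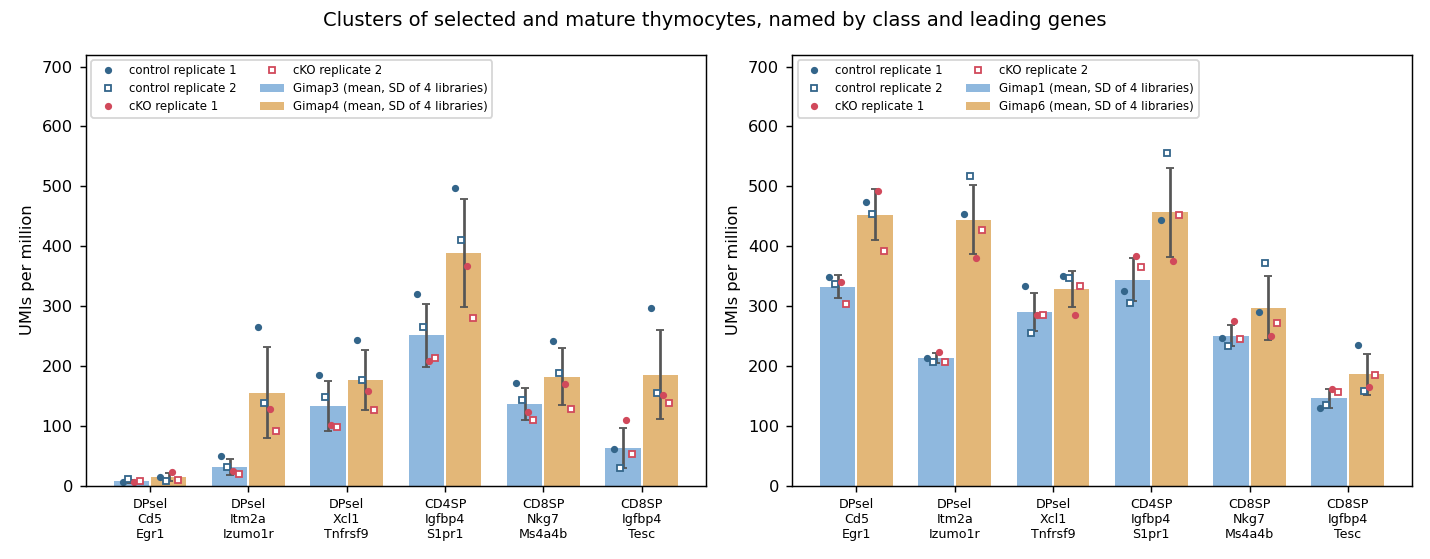
Gimap3 and Gimap4 (left) and Gimap1 and Gimap6 (right) in CPM in the clusters of DPsel, CD4SP and CD8SP cells, named by class and leading genes. Bars are means with the SD of 4 libraries and points are libraries. Gimap4 averages 156 CPM in the DPsel cluster led by Itm2a, where Gimap3 averages 31.3 CPM, while Gimap1 and Gimap6 are high in all DPsel clusters.

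The pattern also held per cell. After each cell was thinned to 1000 UMIs, a UMI of at least 1 member was found in 24.4 to 35.7% of DPbla cells over the 4 libraries. The share was 53.2 to 57.7% for DPre and 64.6 to 73.6% for DPsel cells, and the SP classes reached 79.4 to 83.7% (CD4SP) and 63.0 to 70.6% (CD8SP). Shallower cells were left out, which removed 1045 DPbla, 573 DPre, 59 DPsel, 13 CD4SP and 2 CD8SP cells. Without thinning the shares were 64.2 to 79.7% (DPbla), 78.2 to 90.0% (DPre), 91.96 to 97.3% (DPsel), 98.7 to 99.6% (CD4SP) and at least 95.4% (CD8SP). A thinned CD4SP cell held UMIs of 1.47 to 1.68 different members on average, and a DPre cell of 0.689 to 0.787. Gimap4 was found in 26.7 to 40.3% of CD4SP cells and in 0.401 to 0.718% of DPre cells. Erythroid cells, which should lack the family, had a member UMI in 0 to 20% of 9 to 35 thinned cells in each library, at medians of 1906 to 7926 UMIs before thinning (CD4SP 4191 to 6024, DPre 2208 to 3082). Gimap3 and Gimap4 each had a UMI in 0 of the 80 thinned erythroid cells, which allows a share of up to 3.75% by counting error alone, so their DPre shares cannot be told from background. Gimap7 was found in 0.453 to 0.855% of DPre and 0.172 to 0.61% of DPbla cells against 0 to 2.86% of erythroid cells in a library, and the same holds for it.

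Other cells of the thymus differed as widely. The family held 1199 to 1604 CPM in γδ T-like cells (241 cells), 1215 to 1415 CPM in B-like cells (165 cells), 479 to 601 CPM in cells of the mononuclear phagocyte system (MPS-like, 1126 cells) and up to 137 CPM in erythroid-like cells (95 cells). Gimap3 and Gimap4 were present in both γδ T-like and B-like cells, with means of 132 and 253 CPM in the former and 97.8 and 248 CPM in the latter. Members seen in MPS-like cells were mainly those that DPre cells also hold, Gimap1 (154 CPM), Gimap9 (142) and Gimap6 (132), and these MPS-like cells also held 1144 CPM of Cd8b1, a thymocyte gene.

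Several genes known from thymic exit and survival, picked for their roles, were also higher in CD4SP than in DPre cells. Klf2, a transcription factor that turns on the exit programme, averaged 18.5 CPM in DPre and 728 CPM in CD4SP cells. S1pr1, the receptor that T cells follow out of the thymus, averaged 1.40 and 232 CPM, and Bcl2, an inhibitor of apoptosis, 18.4 and 366 CPM. Klf2 and S1pr1 helped to name the SP classes.

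The pattern did not follow the order of the genes. Gimap3 and Gimap4, whose log2 levels over the 24 sums of stage and library had a Pearson correlation of 0.99, lie at the end of the locus and in its first part with 4 members between them, and the correlation of Gimap3 with Gimap9 was 0.34. The other 26 pairs lay between these. The 24 sums share libraries and total UMIs, so these values are descriptions. Gimap1os, the transcript antisense to Gimap1, averaged 6.23 CPM in DPbla and 28.5 CPM in DPre cells, and 61.8 and 55.1 CPM at the DPsel and CD4SP stages. Among the 20 other genes within 200 kb, Tmem176b, which lies beyond Gimap3, was highest in DN cells (113 CPM) and averaged 9.68 to 25.5 CPM in the other stages.

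**Figure D3:**
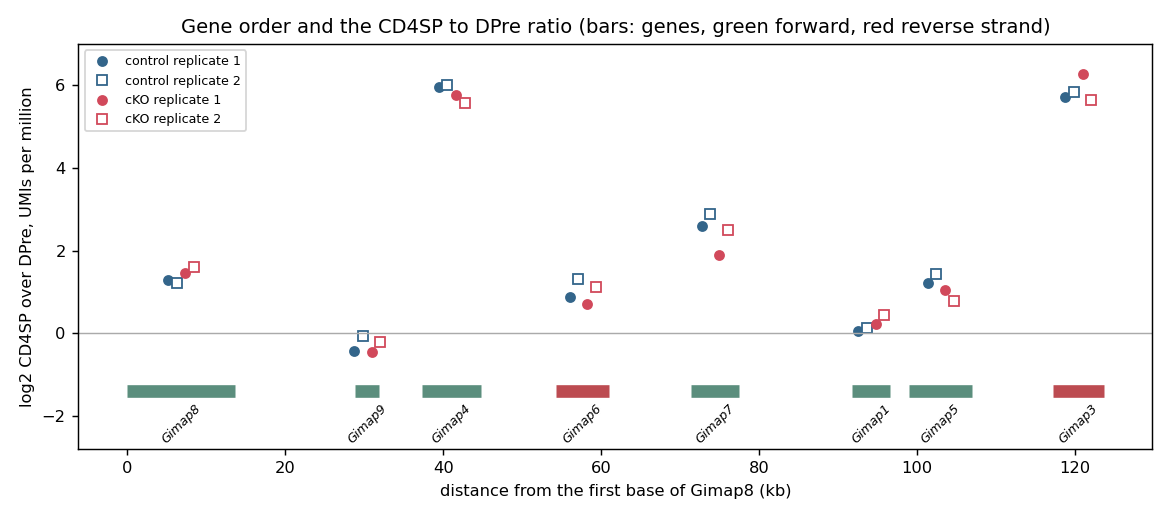
Log2 ratio of the CD4SP to the DPre level of each GIMAP gene in each library, against the position of the gene from the first base of Gimap8 (kb). Bars are the genes, green on the forward and red on the reverse strand. Gimap4 and Gimap3 stand at ratios above 5, and Gimap9 and Gimap1, beside other members, are near 0.

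The genes whose course over the 24 sums was most like that of the summed family were Leprotl1 (Pearson r = 0.972), Otulinl (0.972), Gm26740 (0.97), Ifi209 (0.965) and Tnfrsf18 (0.964). Leprotl1 averaged 108 CPM in DPbla and 273 CPM in CD4SP cells. Ifi209, an interferon-inducible gene, averaged 10.1 and 169 CPM, and Tnfrsf18, which encodes the receptor GITR, 17.9 and 105 CPM.

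Over all DP cells together, 4 of the 8 members fell in cKO mice. Gimap3 measured 19.1 and 13.5 CPM in control and 8.74 and 7.82 CPM in cKO libraries, a log2 change of -0.92 (SE 0.17, edgeR quasi-likelihood test, Benjamini-Hochberg adjusted p = 0.00604). Gimap8 measured 43.7 and 33.3 CPM in control and 25.0 and 25.0 CPM in cKO libraries, -0.56 (SE 0.13, adjusted p = 0.0159) by the same edgeR test. The controls of both genes lay above both cKO libraries, and control replicate 1 was the highest of the 4. Gimap4 measured 42.8 and 24.6 CPM in control and 22.6 and 15.2 CPM in cKO libraries, -0.78 (SE 0.21, adjusted p = 0.043) in edgeR, and Gimap7 13.6 and 8.62 CPM in control and 7.11 and 5.67 CPM in cKO libraries, -0.74 (SE 0.21, adjusted p = 0.0473) in edgeR. The other members had log2 differences of -0.30 (Gimap6, edgeR adjusted p = 0.0542), -0.23 (Gimap9), -0.14 (Gimap1) and -0.02 (Gimap5). With the replicate number as a block, edgeR called 6 members, adding Gimap6 (-0.31, adjusted p = 0.00178) and Gimap9 (-0.23, adjusted p = 0.0335), with 16.4% of all genes. Without the block, the share of all tested genes that was called lower in this comparison was 2.46%, and 7 members had both cKO libraries below both controls, all but Gimap1, against 33% of genes. The median log2 difference was -0.43 over the 8 members and -0.0048 over 12867 genes tested.

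The make-up of the DP cells moved with genotype, toward the stage where the family is lowest. Of all DP UMIs, DPbla cells supplied 27.6% and 27.7% in control against 40.5% and 39.1% in cKO libraries, DPre cells 50.3% and 50.5% in control against 42.0% and 43.7% in cKO libraries, and DPsel cells 22.1% and 21.9% in control against 17.5% and 17.3% in cKO libraries. When each DP cluster was given its mean share over the 4 libraries, the log2 difference was -0.70 for Gimap3, -0.58 for Gimap4, -0.57 for Gimap7 and -0.37 for Gimap8. For the others it was -0.15 (Gimap6), -0.15 (Gimap9), -0.03 (Gimap1) and 0.13 (Gimap5). The 4 called genes thus kept differences of the same sign and smaller size with the make-up held, as values without a test, and of these Gimap4 was then 23.4 CPM in control replicate 2 and 23.6 CPM in cKO replicate 1, so that its groups overlapped.

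**Figure D4:**
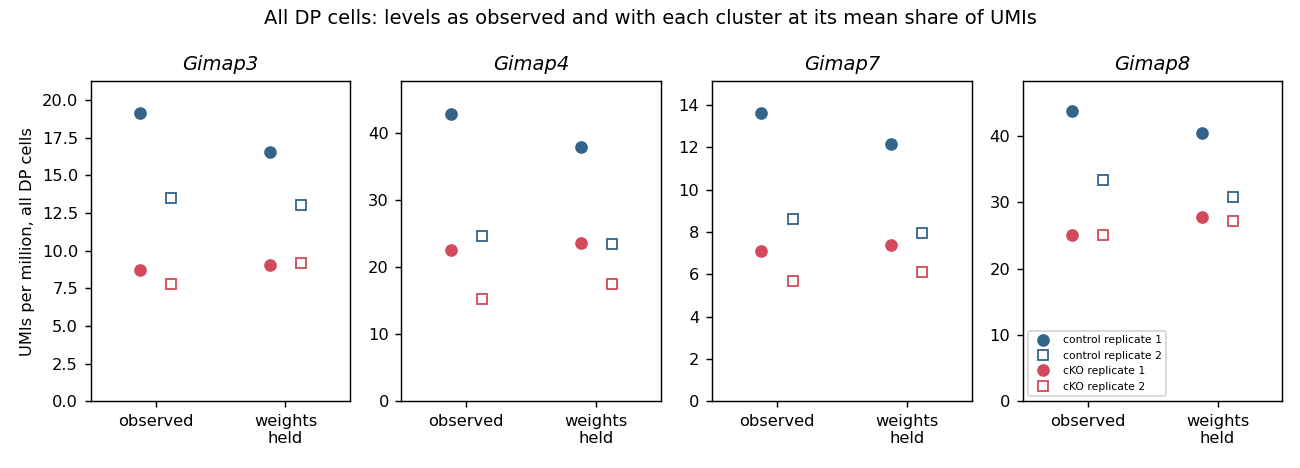
The 4 GIMAP genes called lower over all DP cells, in CPM by library, as observed and with each cluster weighted by its mean share of UMIs over the 4 libraries. Control replicate 1 is the highest point in each panel, and the distance between groups is smaller with the weights held.

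Control replicate 1, the highest library for the called genes, was also the one with most cells over the mitochondrial limit (48.3%), and the part of cell quality in the result was not tested. Without this library, 1 member was called, Gimap3 at a log2 change of -0.67 (edgeR adjusted p = 0.00941), while Gimap4, Gimap7 and Gimap8 stood at -0.36, -0.41 and -0.38 (edgeR adjusted p = 0.229, 0.3 and 0.159). Without control replicate 2 the same edgeR test called 4 members, without cKO replicate 1 it called 5, adding Gimap6, and without cKO replicate 2 it called 3, losing Gimap7 (-0.57, adjusted p = 0.0911). Of all genes, 4.79% were called without control replicate 1, 6.45% without control replicate 2, 7.26% without cKO replicate 1 and 7.64% without cKO replicate 2. DESeq2's Wald test called 3 members, Gimap3, Gimap6 and Gimap8, with 5.53% of all genes, and gave Gimap4 a DESeq2 adjusted p of 0.433 and Gimap7 0.0628. At a mitochondrial limit of 5%, edgeR called 1 member, Gimap8 (-0.78), with 2.04% of all genes, and Gimap3 stood at -0.84 (edgeR adjusted p = 0.0502).

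In the stages taken one by one, edgeR called no member in the fit without the replicate block, while with it members were called in DPbla, DPre, DPsel and CD4SP cells and in the SP classes summed, and none in DN, CD8SP or MPS-like cells. DESeq2's Wald test called none either, and the numbers of members at an unadjusted p under 0.05 in edgeR were 3 of 8 in DPbla cells, where 15.8% of all genes tested had one, 2 in DPre cells (all genes 14.9%), 3 in DPsel cells (all genes 8.07%), 5 in CD4SP cells (all genes 8.11%), 4 in CD8SP cells (all genes 6.81%) and 4 in the SP classes summed (8.55%), and 0 of the 4 tested in DN (7.12%) and of the 6 tested in MPS-like cells (2.14%). The shares of all genes called lower in cKO libraries, at an adjusted p, were 0.828%, 0.734%, 0.0758%, 0.117%, 0.0108%, 0.0289%, 0% and 0% in the same order. Gimap3, Gimap4, Gimap7 and Gimap8 did not pass the filter on low counts in DN cells, and Gimap3 and Gimap7 did not in MPS-like cells. In DPbla cells the differences farthest from 0 were those of Gimap8 (-0.69, SE 0.31, edgeR adjusted p = 0.304) and Gimap6 (-0.43, SE 0.13, edgeR adjusted p = 0.128). Without control replicate 2, edgeR called both in DPbla cells, at log2 differences of -1.18 (Gimap8) and -0.62 (Gimap6), and without cKO replicate 1 it called Gimap6 alone (-0.48), while 4.79% and 4.81% of all genes were called. Without control replicate 1 it called no member, and the values were -0.09 (Gimap8) and -0.21 (Gimap6). With the replicate block edgeR called both (adjusted p = 0.0498 and 0.000666), with 11.2% of all genes. In DPbla cells 4 members (Gimap3, Gimap6, Gimap8 and Gimap9) were lower in both cKO libraries, against 29.3% of genes, and Gimap4 was higher in both (0.33, SE 0.29, edgeR adjusted p = 0.638), as were 18.2%. Under the alternatives the Gimap4 difference ran from -0.47 to 0.42 and took the other sign in 2 of 14. Gimap3 and Gimap4 averaged 2.67 and 3.95 CPM in DPbla cells, below their DPre means, which cannot be told from background.

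In DPre cells, the most numerous class, the differences farthest from 0 were those of Gimap3 (-0.53, SE 0.29, edgeR adjusted p = 0.423) and Gimap8 (-0.37, SE 0.13, edgeR adjusted p = 0.174). Gimap8 measured 43.8 and 36.4 CPM in control and 30.2 and 30.03 CPM in cKO libraries and Gimap3 6.07 and 4.64 CPM in control and 2.69 and 4.28 CPM in cKO libraries, and these 2 members had both cKO libraries below both controls, against 28.5% of genes. The Gimap3 level in DPre cells cannot be told from background, so its difference here rests on values near the floor. Gimap5 ran the other way, with 31.3 and 32.2 CPM in control and 36.5 and 37.7 CPM in cKO libraries (0.26, SE 0.12, edgeR adjusted p = 0.312), as did 18.2% of genes. The remaining 5 members overlapped between groups. With a library left out no member was called in DPre cells, and the difference of Gimap3 ran from -0.28 (without cKO replicate 1) to -0.93 (without cKO replicate 2), with -0.35 without control replicate 1, while Gimap8 ran from -0.25 (without control replicate 1) to -0.50 (without control replicate 2). With the replicate block edgeR called Gimap8 alone (adjusted p = 0.0316), with 9.1% of all genes.

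In DPsel cells the differences farthest from 0 were those of Gimap7, Gimap3 and Gimap4. Gimap7 measured 39.0 and 24.9 CPM in control and 16.8 and 15.3 CPM in cKO libraries (-0.97, SE 0.21, edgeR adjusted p = 0.0653). Gimap3, with the values given above, differed by -0.77 (SE 0.18, adjusted p = 0.0845) in edgeR, and Gimap4 by -0.66 (SE 0.22, adjusted p = 0.332). Gimap4 overlapped between groups, with cKO replicate 1 above control replicate 2, while Gimap3, Gimap6, Gimap7, Gimap8 and Gimap9 were lower in both cKO libraries, 5 of 8 against 19.5% of genes. With the make-up of DPsel clusters held, the log2 differences were -0.75 (Gimap3), -0.69 (Gimap4) and -0.98 (Gimap7). All 3 were called by edgeR without control replicate 2 (log2 -1.02, -1.03 and -1.26) and without cKO replicate 1 (-0.96, -1.03 and -1.03), and Gimap7 also without cKO replicate 2 (-0.89). Of all genes, 0.177%, 1.58% and 1.2% were called in these fits. Without control replicate 1 no member was called, and the values were -0.51 (Gimap3), -0.19 (Gimap4) and -0.64 (Gimap7). With the replicate block edgeR called the same 3 (adjusted p = 3.73e-05, 1.7e-05 and 4.57e-05), with 2.23% of all genes.

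In CD4SP cells the differences farthest from 0 were those of Gimap7, Gimap4 and Gimap3. Gimap3 differed by -0.49 (SE 0.11, adjusted p = 0.0542) and Gimap4 by -0.51 (SE 0.12, adjusted p = 0.0657) in edgeR, and Gimap7, at 51.3 and 41.9 CPM in control and 28.9 and 29.2 CPM in cKO libraries, by -0.70 (SE 0.18, adjusted p = 0.103). Together with Gimap9 these were 4 members with both cKO libraries below both controls, against 16.6% of genes. Gimap1 was the exception, with 324 and 305 CPM in control and 383 and 365 CPM in cKO libraries, higher in both cKO libraries (0.23, SE 0.10, edgeR adjusted p = 0.585), as were 21.3% of genes. Gimap6 and Gimap5 had differences of -0.30 and -0.22, and their groups overlapped. The edgeR calls here turned on single libraries: without control replicate 2 Gimap3, Gimap4 and Gimap7 were called (log2 -0.61, -0.63 and -0.82), without cKO replicate 1 Gimap4 (-0.73) and without control replicate 1 Gimap6 (-0.47). Of all genes, 0.766%, 0.612% and 0.836% were called in these fits. Without cKO replicate 2 no member was called, and without control replicate 1 the values of Gimap3, Gimap4 and Gimap7 were -0.38, -0.39 and -0.57. With the replicate block edgeR called 4 members, Gimap3, Gimap4, Gimap6 and Gimap7 (adjusted p = 9.1e-05, 3.64e-06, 0.0431 and 0.00873), with 1.62% of all genes.

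In CD8SP cells 6 members were lower in both cKO libraries (all but Gimap1 and Gimap3), against 16.7% of genes. Gimap7 measured 59.8 and 35.0 CPM in control and 27.7 and 23.8 CPM in cKO libraries (-0.88, SE 0.24, edgeR adjusted p = 0.336), and Gimap4 246 and 181 CPM in control and 166 and 129.8 CPM in cKO libraries (-0.54, SE 0.16, edgeR adjusted p = 0.425). Control replicate 1 was again the highest library for both. With the make-up of the CD8SP clusters held, the log2 differences were -0.83 and -0.55. Without control replicate 2, edgeR called both (log2 -1.22 and -0.75), where 0.92% of all genes were called. Leaving out any other single library gave no call of a member, and without control replicate 1 the values were -0.46 (Gimap7) and -0.31 (Gimap4). With both SP classes summed, Gimap7 alone was called without control replicate 2 (-1.01), with 0.422% of all genes. With the replicate block edgeR called Gimap3, Gimap4 and Gimap7 there (adjusted p = 0.00897, 0.000887 and 0.00361), with 0.924% of all genes.

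**Figure D5:**
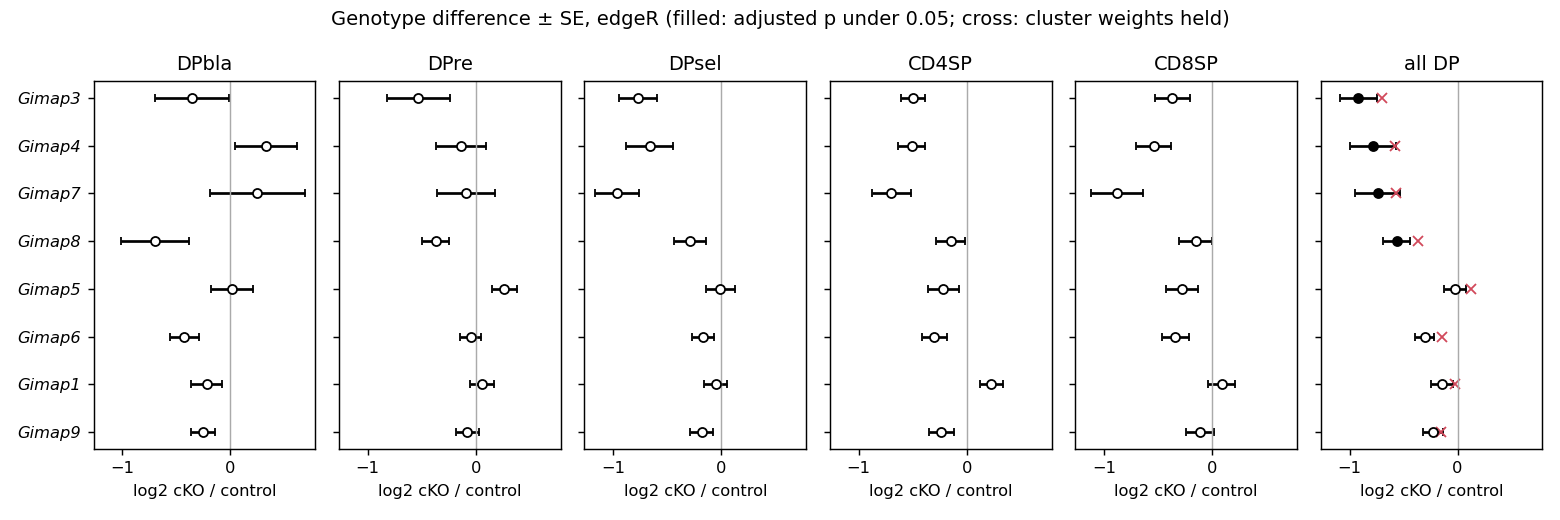
Log2 difference of cKO over control libraries with its SE, for each GIMAP gene in 5 stages and over all DP cells, from edgeR with 2 libraries per group. Filled points passed an adjusted p of 0.05 without the replicate block, and crosses give the all DP value with cluster weights held. Gimap3, Gimap4 and Gimap7 lie left of 0 in DPsel, CD4SP and CD8SP cells, and the filled points are in all DP cells.

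Whether the genotype difference itself varied between stages was tested with a class-by-genotype term in edgeR. No member was called in any of 3 pairs of classes, and DESeq2 was not run for this term. Between CD4SP and DPre cells 4 of 8 members had an unadjusted p under 0.05 (Gimap4, Gimap5, Gimap6 and Gimap7), as had 8.19% of all genes, the smallest of the 4 for Gimap5, whose CD4SP difference minus its DPre difference was -0.49 on the log2 scale (SE 0.15, edgeR adjusted p = 0.175). At an adjusted p, 1.1% of genes were called in this pair. Without cKO replicate 2, Gimap6 was called, at -0.46 (edgeR adjusted p = 0.00574), with 1.29% of all genes. With all libraries this difference of Gimap6 was -0.25, and it was -0.45 without control replicate 1, -0.02 without control replicate 2 and -0.03 without cKO replicate 1. Between CD4SP and DPsel cells 1 member, Gimap1, had an unadjusted p under 0.05 (0.29, SE 0.09, edgeR adjusted p = 0.985), as had 4.61% of genes, and 0% of genes were called. Between CD8SP and CD4SP cells no member reached an unadjusted p under 0.05 (4.22% of genes did), and 0.0203% of genes were called. A difference between stages in the response of the family was therefore not shown.

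Genes that share a pathway or a position with the family were read in the same fits, in which 0% (MPS-like) to 6.28% (all DP) of all genes were called. Of the 14 Bcl-2 family genes, the regulators of apoptosis that GIMAP proteins have been linked to, 10 to 14 were tested in a class and 0 were called by edgeR. With the replicate block 3 of 13 were called in DPbla cells (Bax higher, Bcl2l1 and Mcl1 lower in cKO libraries), beside 11.2% of all genes. Bmf was higher in DPre cells (1 of 13, all genes 9.1%) and DPsel cells (1 of 11, all genes 2.23%). Bcl2 was higher in CD4SP cells (1 of 11, all genes 1.62%). Bbc3 and Mcl1 were lower over all DP cells (2 of 14, all genes 16.4%). The counts in DPre and all DP cells did not stand above the shares of all genes. Of 15 genes of maturation and exit, H2-K1 and Ms4a4b were higher in cKO DPbla cells, where 1.49% of genes were. H2-K1, a class I histocompatibility gene, measured 49.9 and 43.0 CPM in control and 67.3 and 61.4 CPM in cKO libraries (log2 0.52, edgeR adjusted p = 0.0329). Ms4a4b, a marker of late SP cells, measured 7.45 and 8.19 against 17.8 and 13.4 CPM (log2 1.02, edgeR adjusted p = 0.0254). Cd69, an early marker of selection, was lower over all DP cells, with 75.0 and 64.6 CPM in control and 46.0 and 53.7 CPM in cKO libraries (log2 -0.43, edgeR adjusted p = 0.0321), the same sum of cells whose make-up moved. Klf2, S1pr1 and Bcl2 were not called in any class without the block. With it, Il7r, the interleukin-7 receptor, was also higher in cKO DPbla, DPre and DPsel cells, H2-K1 and Ms4a4b were higher in DPre cells, Rag1 and Slfn2 were lower in DPbla cells, and Rag1, Slfn2 and Ccr7 were lower over all DP cells. The shares of all genes called in these block fits are those given above for the Bcl-2 family genes. Of the 20 neighbours of the locus, 3 to 9 passed the filter on low counts in a class and 0 were called in either fit. At such shares, a count of 0 says nothing about a list of this size.

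Transcripts known from phagocytes and red cell precursors also differed between the groups. The 9 MPS markers summed to 58.6 and 50.2 CPM in control and 68.5 and 69.9 CPM in cKO libraries over all DP cells, 6 of the 9 were higher in both cKO libraries, and they summed to 44.3 and 47.1 CPM in control and 55.9 and 68.2 CPM in cKO libraries in CD4SP cells. In MPS-like cells, for scale, Lyz2 alone held 4203 CPM. The 5 erythroid markers summed to 19.6 and 14.1 CPM in control and 41.3 and 32.3 CPM in cKO libraries over all DP cells, with 4 of 5 higher in both cKO libraries. The 6 B cell markers summed to 411 and 383 CPM in control and 433 and 416 CPM in cKO libraries, with 1 of 6 higher and 1 lower in both cKO libraries. No marker of the 3 lists was at 0 in all DP cells. Their part in the GIMAP differences was not tested. The called members, at 5.67 to 43.7 CPM in all DP cells, were also present in MPS-like cells at 11.3 (Gimap3), 33.9 (Gimap4), 3.18 (Gimap7) and 18.7 CPM (Gimap8).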

How the data were processed

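Thymocytes of 2 control and 2 cKO mice were analysed from 4 single-cell libraries. The authors deposited raw UMI counts per gene and cell, 1 filtered matrix per library, made with Cell Ranger on GRCm38 (mm10) per the study's methods and the submitters' processing notes, without normalization or pooling.

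Cells were removed for under 200 genes, for a UMI total among the lowest or highest 2.5% of the library, or for over 10% mitochondrial UMIs, and so were the 5% with the highest Scrublet doublet score (expected rate 8%). Counts per cell were log-scaled, the 3000 most variable genes (no member among them) reduced to 30 components, and cells clustered with Leiden (scanpy 1.11.5, leidenalg 0.10.2; 20 neighbours, resolution 1.0). Clusters took the name of the marker list whose mean log2 level (pseudocount 5 CPM) stood highest above the mean of the other clusters. A cluster stayed unnamed with a best score under 1, under 3 detected markers, under 20 cells, markers of a second class, or low UMI totals without its markers among its top 10 genes.

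UMIs were summed per library and class (at least 30 cells in each library) and tested with edgeR 4.0.16 (R 4.3.3; quasi-likelihood F test, TMM, filterByExpr, genotype as the single term, Benjamini-Hochberg over all genes of the class, called at an adjusted p under 0.05). SEs are approximate. The difference of effects between classes used a class-by-genotype term with library as a block. DESeq2 1.42.0 was an alternative. The replicate number was an alternative block: the study analysed control and cKO mice in pairs and asked for the same direction in each replicate, and same-numbered libraries deviated together, with correlations of 0.0587 (CD8SP) to 0.346 (all DP) across genes. With 2 libraries per group, p-values measure the spread between these libraries, and libraries held 72 to 5970 cells of a tested stage. Stage pairs were compared over genes with at least 10 UMIs, by whether the 4 library values overlapped. On simulated counts, edgeR recovered 81.6% and 97% of genes changed by a log2 of 1 and 2 in DPre (11693 genes) and 79.8% and 98% in CD4SP (9401 genes). The simulation gave all genes the same fixed dispersion and changed only genes above a count limit. It held no differences tied to replicate or cell quality, so these rates do not give the power for the members.

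Named genes were all 8 members, the 5 other genes with the course most like the summed family over 24 sums (at least 20 CPM in a stage), and called genes of the Bcl-2, maturation and neighbour lists, beside genes given as markers. Markers named for a class, Klf2, S1pr1, Bcl2 and the neighbours given with levels were picked for their roles or after their values were seen. The members and lists were chosen with earlier results of these data known. Intervals and shares cover counting error only. RefSeq promoter windows (GRCm38.p6) matched all 8 members, and of the start sites of Gimap8 either was counted.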

Additional observations from a re-analysis of the deposited data

How the results depend on the processing

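For the 35 differences of a member in a class followed one by one, the alternatives gave 501 values, of which 430 were counted as keeping direction and side of the threshold, 51 became called, 11 lost their call, 5 moved in size and 4 changed sign. Values with the cluster weights held have no test, and for members not called they were sorted by size alone. The change of Gimap5 over all DP cells from -0.02 to 0.13 is therefore not among the 4. Over all 66 pairs of a member and a class tested, 22 took the other sign under at least 1 alternative (6 in DPre, 4 in DPbla, 4 in MPS-like, 2 each in DN, DPsel and CD8SP, 1 in CD4SP and 1 over all DP cells), and 0 of the 22 were called. Over all DP cells Gimap3 and Gimap8 were each called under 13 of 14 alternatives, Gimap4 under 11 and Gimap7 under 8. The number of members called over all DP cells was 1 at a mitochondrial limit of 5% and 1 to 5 with a library left out. Without the filter on low counts edgeR called 1 member in DPbla (with 3.63% of all genes), 3 in DPsel (0.704%), 2 in CD8SP (0.391%) and 3 in the summed SP cells (0.838%). Resolution 1.5 gave 2 in DPsel (0.405%), DESeq2's size factors gave 1 in CD4SP (Gimap3, 0.36%), and leaving out the CD8SP cluster led by Igfbp4 gave 1 in the summed SP cells (0.244%). With a library left out the counts were 0 to 2 in DPbla, 0 to 3 in DPsel, 0 to 3 in CD4SP, 0 to 2 in CD8SP, 0 to 1 in the summed SP cells and 0 to 1 for the difference between CD4SP and DPre effects. The cause of these shifts was not tested. Over all genes, 808 were called over all DP cells, and 231 to 2107 under the alternatives.

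With the replicate number as a block, edgeR called 6 members over all DP cells, 4 in CD4SP, 3 in the summed SP cells, 3 in DPsel, 2 in DPbla and 1 in DPre. The block also raised the share of all genes called, to 16.4%, 1.62%, 0.924%, 2.23%, 11.2% and 9.1% in the same order. It changed no other call of a member.

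Among the differences followed one by one, sign changed for Gimap8 in CD4SP cells (log2 -0.29 to 0.00995 with a library left out, the highest without control replicate 1, and 0.000239 at resolution 1.5), for Gimap5 in DPre cells (-0.0032 at the mitochondrial limit of 5%) and for Gimap5 over all DP cells (-0.0691 to 0.0234 with a library left out, the highest without cKO replicate 2, and 0.13 with the cluster weights held). Stage steps were followed for sign in the family sum and in members whose library values did not overlap between the stages. Among these it changed for Gimap4 between DPbla and DPre cells (log2 -1.03 with no doublets removed and -0.12 after thinning) and for the family sum between DN and DPbla cells (log2 0.087 after thinning, -0.63 with no cells removed for UMI totals). Sign changes of overlapping steps were not counted. The family's other log2 steps kept their direction. DPre over DPbla was 1.73 at the 5% limit, 1.86 with no UMI removal and 1.18 after thinning. DPsel over DPre was 0.72 at the 5% limit. CD4SP over DPsel was 0.42 at the 5% limit, 0.45 with no doublets removed, 0.47 with no UMI removal and 0.60 after thinning. CD8SP over DPre was 0.62 with no doublets removed and 0.61 after thinning, and CD8SP over CD4SP was -0.57 at the 5% limit and -0.48 with no doublets removed. At the 5% limit DN and CD8SP cells could not be tested, since a library held under 30 cells.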
